A study of Mus musculus with 29 samples.

Results

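Myelin is the lipid-rich membrane that oligodendrocytes wrap around axons in the brain, and a small set of proteins gives it its structure. Its genes are switched on together as an oligodendrocyte matures, under the transcription factors SOX10 and MYRF, and their RNA is a usual sign of oligodendrocytes in a brain sample. Here 9 such genes were followed through libraries that were labelled as pyramidal neurons: Cnp, Mag, Mobp, Cldn11, Opalin, Mal, Ermn, Apod and Sox10. They were taken by name, with earlier results of these data known, and all 9 had rows among the 9872 genes of the amygdala. Of these, Cnp, Mag, Opalin, Mal and Ermn also had rows among the 6080 genes of the prefrontal cortex, and the other 4 were not analysed here in that region. The tables of both regions together held 10678 genes.

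All mice carried the transgene of the line B6.Cg-Tg(Thy1-YFP)HJrs/J, in which a Thy1 promoter drives a fluorescent protein in a subset of neurons. The labels gave no age. Cells were freed from punches of the amygdala or the medial prefrontal cortex by enzyme digestion, sorted as pyramidal neurons, and sequenced with an ultra-low-input kit after removal of ribosomal RNA. Mice were labelled Res-T or Sus-T, each without or with trauma, and the labels did not say more about either term. The amygdala groups held 3 libraries of Res-T without trauma, 2 of Sus-T without trauma, 4 of Res-T with trauma and 4 of Sus-T with trauma. The prefrontal groups held 4, 2, 3 and 4 libraries in the same order. According to the design text 9 mice gave the amygdala samples, while 13 libraries were analysed, and no label ties libraries to mice, so p-values measure the spread between libraries only.

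The deposited values are a signal without a stated unit, already normalized, and read depth is unknown. A library's summed signal was 3267967 to 4021272 for amygdala samples and 2095138 to 2444486 for prefrontal ones, with no value at 0. Dimensions were counted on log2 values centred by gene, after 1 was subtracted from each value, whereas the tests used log2(value + 1). The 13 amygdala libraries then varied along 1 dimension fewer than such libraries can, and the prefrontal libraries along 2 fewer. The within-group spread may therefore be understated, which would make p-values too small. Oligodendrocyte RNA was abundant in these sorted samples. The measured genes of a list of other myelin and oligodendrocyte genes made up 2.74% to 9.07% of a library's signal in the amygdala and 3.84% to 10.7% in the prefrontal cortex. Of 14 markers of pyramidal neurons, 5 had rows in the amygdala (Camk2a, Camk2n1, Nrgn, Rorb and Cux2) and 1, Rorb, in the prefrontal cortex; Slc17a7, Neurod6 and the other markers were not analysed here. Together the 5 made up 0.0170% to 0.244% of a library's signal in the amygdala. The labelled cell type could therefore be checked against few of its markers. In such sorted bulk samples, fewer oligodendrocytes and less of a transcript per oligodendrocyte cannot be told apart.

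The promoters of these genes show which of them carry short motifs bound by SOX proteins and by MYRF, the regulators of the myelin programme. RefSeq windows on GRCm38.p6, from 250 bases before to 50 after the transcription start, were found for 8 of the 9 genes, all but Sox10. The motifs searched on both strands were ACAAAG and ACAATG for SOX proteins and CTGGCAC and CTGGTAC for MYRF. Windows of 3 genes are printed, because they hold both kinds of motif (Cnp and Opalin) or the most copies of one (Mobp). Mag, which is not printed, also holds both kinds. Capitals mark the motifs, which appear as CTTTGT or GTGCCAG where they lie on the other strand.
Cnp, chr11:100574689-100574988, plus strand: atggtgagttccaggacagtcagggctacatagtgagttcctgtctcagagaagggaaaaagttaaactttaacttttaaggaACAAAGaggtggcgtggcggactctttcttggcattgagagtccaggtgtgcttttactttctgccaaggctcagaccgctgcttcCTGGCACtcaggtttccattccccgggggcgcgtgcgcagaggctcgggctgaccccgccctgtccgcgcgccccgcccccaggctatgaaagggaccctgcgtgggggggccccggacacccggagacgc
Opalin, chr19:41077064-41077363, minus strand: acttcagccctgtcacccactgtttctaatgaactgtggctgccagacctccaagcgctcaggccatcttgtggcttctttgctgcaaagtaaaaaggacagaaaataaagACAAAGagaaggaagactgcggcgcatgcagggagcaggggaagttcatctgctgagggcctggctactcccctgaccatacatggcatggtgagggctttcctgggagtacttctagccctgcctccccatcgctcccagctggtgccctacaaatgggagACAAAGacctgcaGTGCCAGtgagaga
Mobp, chr9:120149492-120149791, plus strand: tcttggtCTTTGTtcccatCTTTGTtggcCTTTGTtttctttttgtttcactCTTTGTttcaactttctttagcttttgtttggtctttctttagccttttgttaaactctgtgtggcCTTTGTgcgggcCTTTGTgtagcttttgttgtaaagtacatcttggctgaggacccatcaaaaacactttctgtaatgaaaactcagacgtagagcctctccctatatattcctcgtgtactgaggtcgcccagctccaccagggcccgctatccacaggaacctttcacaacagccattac
ACAAAG occurred 1 time in the Cnp window, 2 times in that of Opalin and 6 times in that of Mobp. It also occurred 1 time in the window of Apod and in each of the overlapping windows of starts 1 and 2 of Mag. The window of start 3 of Mag held no listed motif. Across 32851 mouse promoter windows of this length, 18.7% held ACAAAG, and 1 window, that of Mobp, held it at least 6 times. CTGGCAC occurred 1 time each in Cnp, Mag and Opalin, against 5.01% of all windows, and 0.977% of all windows held both ACAAAG and CTGGCAC as these 3 did. ACAATG, held by 12.6% of windows, occurred 1 time in Ermn and in Apod, and CTGGTAC, held by 2.24%, in none of the 8. No listed motif lay in the windows of Cldn11 and Mal. A match is a stretch of letters and not a measured binding site.

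In the amygdala without trauma, 8 of the 9 genes were lower in Sus-T than in Res-T, by 3.28-fold to 5.27-fold. Mobp was the exception, with a difference of 1.58-fold that did not pass the test. The 8 called genes stand against 15% of all amygdala genes called lower and 27.4% called in either direction in this comparison (limma, adjusted p under 0.05 over all genes). The median log2 difference of the 9 genes was −2.01, and that of all genes was −0.03. In all 9 genes both Sus-T libraries lay below the 3 Res-T libraries, as was the case for 31.3% of all genes. Library 1 of Sus-T without trauma had the lowest value of all 13 amygdala libraries in 9 of 9 genes, and library 3 of that group the second lowest.

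**Figure D1:**
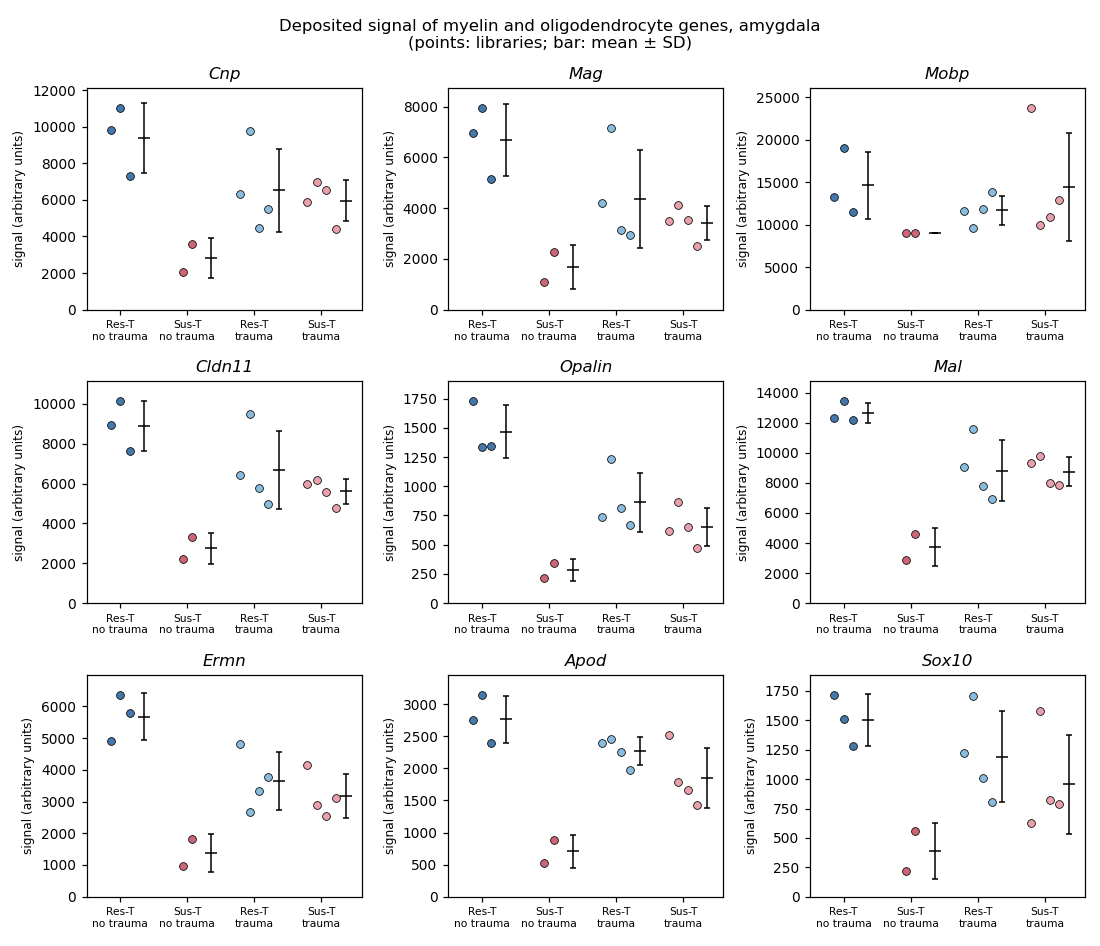
Signal of each of the 9 genes in the 13 amygdala libraries, in arbitrary units from 0, with 1 point per library and a bar for the mean ± SD of each group. Both libraries of Sus-T without trauma lie at the bottom of every panel, and for Mobp they lie at 9025 and 9045, close to several libraries of the other groups.

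Cnp encodes an enzyme of the cytoplasmic channels that run through myelin (chr11:100574904-100591729, plus strand). Its signal was 9797, 11034 and 7315 in Res-T without trauma and 2042 and 3590 in Sus-T without trauma. It fell by 1.77 ± 0.30 (SE) on the log2 scale (limma adjusted p = 0.000408). With trauma it was 6333, 9752, 4488 and 5521 in Res-T and 5892, 6976, 6556 and 4409 in Sus-T, so those groups overlapped. The exons of Cnp overlap those of Dnajc7 on the opposite strand, and whether the quantification used strand is not given in the sources used here.

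Mag encodes an adhesion protein of the myelin membrane that faces the axon (chr7:30899176-30914873, minus strand). It measured 6978, 7953 and 5142 in Res-T and 1079 and 2286 in Sus-T without trauma. The fall was 2.07 ± 0.36 on the log2 scale (adjusted p = 0.000426). With trauma the libraries held 4208, 7160, 3133 and 2940 in Res-T and 3501, 4133, 3527 and 2490 in Sus-T. Library 2 of Res-T with trauma was the highest of these 8 for Mag, as it was for Cnp.

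Cldn11 encodes the claudin that forms the tight junctions between the layers of myelin (chr3:31149920-31164324, plus strand). Its signal was 8937, 10129 and 7623 in Res-T and 2193 and 3300 in Sus-T without trauma, a fall of 1.72 ± 0.25 (adjusted p = 0.00012). With trauma it was 6432, 9486, 5785 and 4989 in Res-T and 5965, 6164, 5578 and 4764 in Sus-T. Mal encodes a small proteolipid that sorts proteins towards myelin membrane (chr2:127633226-127656695, minus strand). It measured 12323, 13425 and 12189 in Res-T and 2849 and 4606 in Sus-T without trauma, a fall of 1.80 ± 0.23 (adjusted p = 4.77e-05). With trauma it measured 9039, 11588, 7780 and 6906 in Res-T and 9351, 9763, 7986 and 7885 in Sus-T. With trauma the groups overlapped for both genes. All 4 Sus-T libraries lay within the range of Res-T for Mal, and 3 of 4 did for Cldn11, whose library 4 was lowest.

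Opalin, a transmembrane glycoprotein of central myelin (chr19:41061710-41077113, minus strand), had the largest difference among the 9 genes. It measured 1726, 1332 and 1344 in Res-T and 218 and 348 in Sus-T without trauma. The fall was 2.40 ± 0.28 on the log2 scale, or 5.27-fold (adjusted p = 2.66e-05). With trauma it measured 739, 1231, 815 and 670 in Res-T and 613, 863, 653 and 468 in Sus-T. All 4 Res-T libraries with trauma thus lay below the 3 without.

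Ermn encodes ermin, an actin-binding protein that appears late in myelination (chr2:58045113-58052864, minus strand). It measured 4897, 6361 and 5783 in Res-T and 960 and 1811 in Sus-T without trauma, a fall of 2.10 ± 0.28 (adjusted p = 5.87e-05). With trauma it measured 4827, 2670, 3319 and 3768 in Res-T and 4151, 2897, 2540 and 3127 in Sus-T. Library 2 of Res-T with trauma, the highest of its group for Cnp, Mag, Cldn11 and Mal, was the lowest of it for Ermn. Exons of Ermn overlap those of Galnt5 on the opposite strand.

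Apod encodes apolipoprotein D, a lipid carrier made by mature oligodendrocytes among other cells (chr16:31296192-31314808, minus strand). It measured 2748, 3145 and 2404 in Res-T and 521 and 890 in Sus-T without trauma, a fall of 2.01 ± 0.25 (adjusted p = 3.71e-05). With trauma it measured 2399, 2461, 2258 and 1976 in Res-T and 2523, 1792, 1659 and 1427 in Sus-T. Both Sus-T libraries without trauma lay far below the other 11 amygdala libraries for Apod.

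Sox10 encodes the transcription factor that commits cells to the oligodendrocyte lineage, and precursors carry it too (chr15:79154908-79165240, minus strand). It measured 1716, 1514 and 1279 in Res-T and 222 and 556 in Sus-T without trauma, a fall of 2.08 ± 0.39 (adjusted p = 0.000926). With trauma it measured 1226, 1710, 1010 and 809 in Res-T and 630, 1576, 822 and 790 in Sus-T. Sox10 had the widest spread within groups of the 9 genes, with an SD of 0.53 on the log2 scale, against 0.27 for Mal at the other end. Of 5 measured markers of oligodendrocyte precursors, 2 rose in this comparison and none fell, against 12.4% of all genes called higher.

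Mobp encodes a small basic protein of compact myelin whose RNA is carried out into the processes of the cell (chr9:120149707-120181484, plus strand). It measured 13279, 19048 and 11499 in Res-T and 9025 and 9045 in Sus-T without trauma. The difference was −0.66 ± 0.30 on the log2 scale with a 95% interval from −1.29 to −0.03 (limma adjusted p = 0.111). The adjusted p was 0.0349 when only these 2 groups were fitted and 0.0329 without library 1 of Sus-T with trauma, which had the highest Mobp value of all at 23738. The other values with trauma were 9968, 10941 and 12857 in Sus-T and 11652, 9614, 11790 and 13783 in Res-T. Mobp overlaps the gene model Gm38642 on the same strand, so a quantifier may divide reads between them.

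Leaving out either library of Sus-T without trauma kept the count of called genes at 8. Library 1 of that group set part of the size, however. Without it the log2 difference of Cnp was −1.36 and that of Sox10 −1.42, and without library 3 they were −2.18 and −2.74, with the library that remained assumed to vary like those of the other groups. Over all alternatives that left out a library the count was 8 to 9.

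With trauma, the Sus-T and Res-T libraries of the amygdala overlapped in 9 of 9 genes, and 5.75% of all genes did not overlap between these groups. limma called none of the 9 and 0 of all 9872 genes, or 0%, and at an unadjusted p under 0.05 it called 0 of the 9 and 1142 of all (11.6%). The log2 differences ran from −0.40 ± 0.22 for Opalin to 0.22 ± 0.23 for Mobp. The 95% intervals of Cnp, from −0.59 to 0.41, and of Apod, from −0.73 to 0.08, do not reach the differences seen without trauma.

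Comparisons of libraries with and without trauma share their control groups with the comparisons above. In Res-T, all 9 genes had a lower mean log2 value with trauma, but none passed the test (limma, adjusted p under 0.05), against 6.18% of all genes called and 2.88% called lower. At an unadjusted p under 0.05, 6 of the 9 and 23.7% of all genes did. The log2 difference was −0.79 ± 0.24 for Opalin (adjusted p = 0.0548), −0.66 ± 0.23 for Ermn (adjusted p = 0.0951) and −0.54 ± 0.19 for Mal (adjusted p = 0.0991). In these 3 genes every library with trauma was below every one without, as in 13.5% of all genes. The other 6 ran from −0.69 for Mag to −0.28 for Apod. With a library left out, the number called among all genes changed too, as given below. Without library 2 of Res-T with trauma, 4 of the 9 genes were called lower, namely Mag, Cldn11, Opalin and Mal, and 1 was called without library 1 or 3 of Sus-T without trauma or library 2 of Sus-T with trauma.

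In Sus-T the direction was the other way. All 9 genes were higher in each of the 4 libraries with trauma than in both without, which held for 12.6% of all genes. The log2 differences were 1.41 ± 0.24 for Apod, 1.35 ± 0.37 for Sox10, 1.27 ± 0.22 for Mal, 1.25 ± 0.27 for Ermn, 1.20 ± 0.27 for Opalin, 1.12 ± 0.29 for Cnp, 1.10 ± 0.34 for Mag, 1.05 ± 0.24 for Cldn11 and 0.58 ± 0.28 for Mobp. Of these Apod passed the test (adjusted p = 0.0465) and the other 8 did not, with adjusted p from 0.0517 to 0.438, while limma called 0.0203% of all genes higher and 0.0304% in either direction. Apod was 1 of 3 genes called in this comparison. With a library left out, the number called among all genes changed as well, as given below. The count among the 9 genes rested on single libraries. It was 8 without library 3 of Sus-T without trauma, 5 without library 2 of Res-T with trauma, 1 without library 4 of Sus-T with trauma, and 0 without any single one of the others. Without library 1 of Sus-T without trauma the adjusted p of Apod was 0.998.

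The difference between the trauma effects of Sus-T and Res-T was tested directly in the amygdala. It was positive and called in 8 of the 9 genes, from 1.50 ± 0.32 for Cldn11 to 1.99 ± 0.36 for Opalin on the log2 scale, with adjusted p from 0.00334 (Mal) to 0.0462 (Sox10). In this comparison limma called 6.74% of all genes and 4.76% in this direction. Mobp had 0.88 ± 0.38 and was not called (adjusted p = 0.168). Without library 1 of Sus-T without trauma 1 of the 9 genes was still called, Mal with 1.46 (adjusted p = 0.0443), and the other values of the 9 then ran from 0.88 for Mobp to 1.66 for Opalin.

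**Figure D2:**
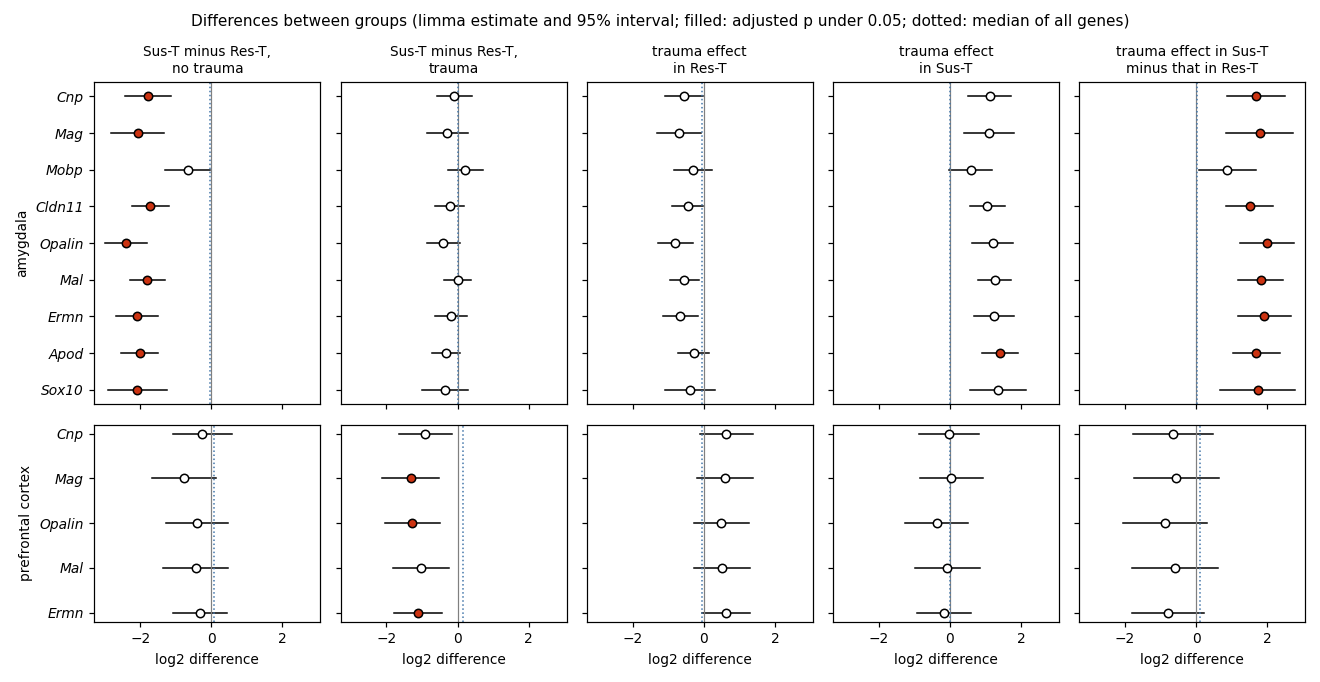
log2 differences of each gene in the 5 comparisons, amygdala above and prefrontal cortex below, as limma estimates with 95% intervals. Filled points have an adjusted p under 0.05, and the dotted line is the median of all genes; 8 amygdala genes are filled without trauma, none with trauma, and 3 prefrontal genes are filled with trauma.

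Ratios between these genes within a library do not depend on a scaling by 1 factor per library. A normalization that treated genes differently would change them, and the authors' method is not given in the sources used here. Only changes of a ratio are read here, since its level depends on gene length. Of the 36 pairs in the amygdala, the 28 without Mobp moved little. Their SD within groups had a median of 0.31 on the log2 scale (0.10 to 0.63), and the means of the 4 groups spanned a median of 0.38 and at most 0.69. The steadiest pair was Cldn11 and Mal, whose log2 ratio ran from −0.73 to −0.29 over the 13 libraries, a 1.35-fold range, while Cldn11 itself spanned 2193 to 10129. The log2 ratio of Cnp to Mag followed at 0.45 to 0.92. Steady as it was, the log2 ratio of Cldn11 to Mal differed between some groups without overlap. With trauma it was lower in Sus-T than in Res-T (−0.22), the only 1 of the 28 pairs without overlap there. In Sus-T it was lower with trauma than without (−0.21). Among the 28, those with the widest spread within groups were Ermn to Sox10, at an SD of 0.63, and Mag to Ermn, at 0.57.

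The 8 pairs with Mobp behaved differently. Their group means spanned 1.06 to 1.74 on the log2 scale. The ratio of Cnp to Mobp was 0.738, 0.579 and 0.636 in Res-T without trauma and 0.226 and 0.397 in Sus-T without trauma. With trauma it was 0.544, 1.01, 0.381 and 0.401 in Res-T and 0.248, 0.70, 0.599 and 0.343 in Sus-T. Without trauma the ratio of each of the other 8 genes to Mobp was lower in both Sus-T libraries than in all Res-T libraries, which held for 8.79% of all genes taken relative to Mobp. Relative to Cnp, which was itself lower in Sus-T, 83.7% of all genes did not overlap between these groups. That share is therefore not a chance rate for pairs of the named genes. Of the 28 pairs without Mobp, 9 did not overlap between these groups. In 4 of these 9 Opalin was lower in Sus-T relative to its partner (Cnp, Cldn11, Mal or Apod), by 0.39 to 0.69 on the log2 scale.

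A fit of all genes relative to Cnp tested these ratios. Of 40 ratios, 8 genes in 5 comparisons, limma called 1. The share of all genes called relative to Cnp was 75% without trauma, 0.0608% with trauma, 8.32% for trauma in Res-T, 44.5% for trauma in Sus-T and 56.8% for the difference between the trauma effects. The Mobp to Cnp ratio was higher by 1.11 ± 0.47 in Sus-T than in Res-T without trauma (adjusted p = 0.0351), but so were 74.6% of all genes relative to Cnp. The other 7 genes were not called there, with log2 values from −0.63 ± 0.39 for Opalin (95% interval −1.43 to 0.18) to 0.06 ± 0.36 for Cldn11 (−0.69 to 0.81). These intervals are wide and include 0 for each of the 7 genes. Relative to Mobp, 7 of the other 8 genes were lower in that comparison, against 2.48% of all genes called lower, with log2 values from −1.06 ± 0.37 for Cldn11 to −1.74 ± 0.42 for Opalin. Sox10 was not called at −1.42 ± 0.57 (adjusted p = 0.0813). The call for Mobp relative to Cnp was lost without library 1, 2 or 3 of Res-T without trauma (adjusted p = 0.0904, 0.0562 and 0.0573) and without library 1 of Sus-T without trauma (adjusted p = 0.325).

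**Figure D3:**
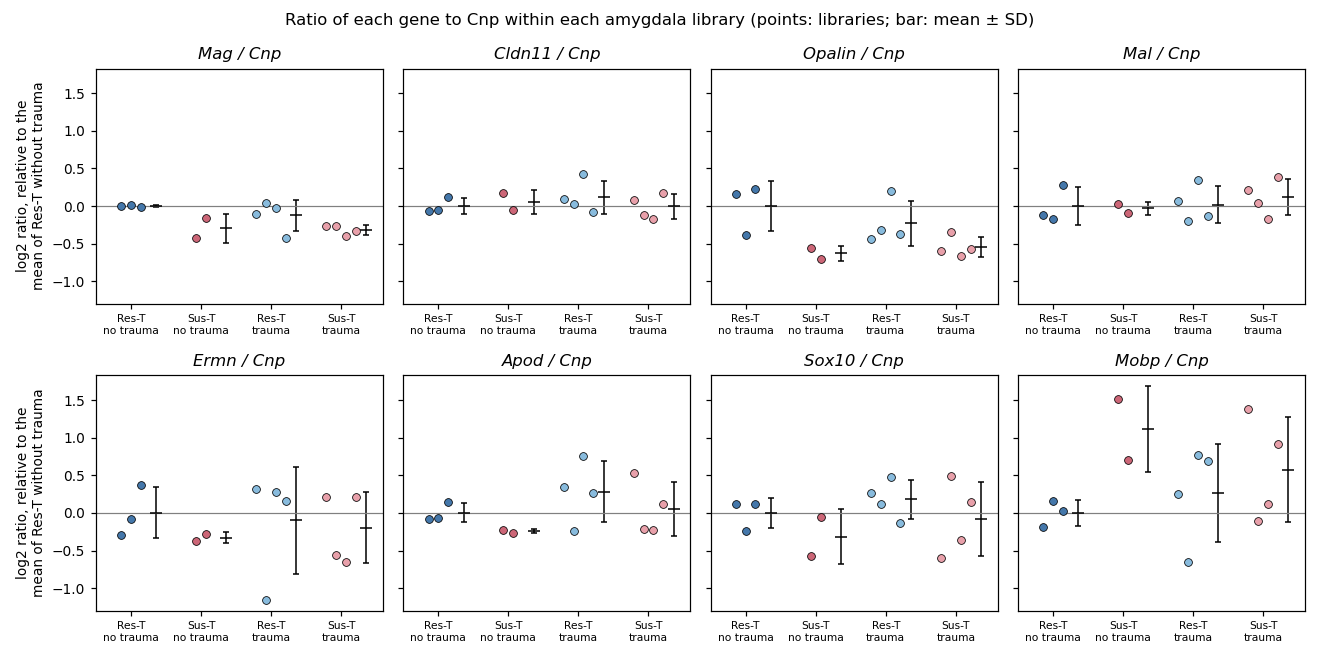
log2 ratio of each gene to Cnp within each of the 13 amygdala libraries, shifted so that the mean of Res-T without trauma is 0, with 1 point per library and a bar for the mean ± SD. The panels of Mag, Cldn11 and Mal stay close to 0, and that of Mobp shows both libraries of Sus-T without trauma above 0.5. Libraries 3 and 4 of Res-T with trauma and 1 and 4 of Sus-T with trauma also lie above 0.5 for Mobp.

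Prefrontal differences between Sus-T and Res-T were found with trauma, where 3 of the 5 genes were lower in Sus-T by 2.16-fold to 2.50-fold. limma called 23% of all prefrontal genes in this comparison and 8.93% of all genes lower. Mag measured 4292, 4463 and 3641 in Res-T and 2100, 1491, 969 and 2432 in Sus-T with trauma, a fall of 1.32 ± 0.37 on the log2 scale (adjusted p = 0.0191). Opalin measured 907, 949 and 872 in Res-T and 444, 333, 276 and 494 in Sus-T, a fall of 1.27 ± 0.37 (adjusted p = 0.0208). Ermn measured 3150, 3793 and 2828 in Res-T and 948, 1496, 1396 and 2533 in Sus-T, a fall of 1.11 ± 0.32 (adjusted p = 0.0204). In each of the 3 genes all Sus-T libraries lay below all Res-T libraries.

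Cnp and Mal did not pass the test. Cnp measured 5567, 7312 and 4427 in Res-T and 3379, 2590, 2195 and 4317 in Sus-T with trauma, a difference of −0.90 ± 0.35 (adjusted p = 0.0726). Mal measured 8276, 10198 and 6079 in Res-T and 3337, 3554, 3140 and 6425 in Sus-T, a difference of −1.03 ± 0.38 (adjusted p = 0.0597). The groups did not overlap for Cnp, as for Mag, Opalin and Ermn, and overlapped for Mal through library 4 of Sus-T. Across all genes 16.3% were lower in every Sus-T library of this comparison. The median log2 difference was −1.11 for the 5 genes and 0.15 for all genes. The number called among all genes changed with a library left out, as given below. After centring each library on its median all 5 of the genes were called, and the share of all genes called then is not given here. The count was 0 without library 1 or 3 of Res-T with trauma, without library 3 of Sus-T with trauma, or with moderation that used neither trend nor robust options, and 5 without library 4 of Res-T without trauma or library 3 of Sus-T without trauma.

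**Figure D4:**
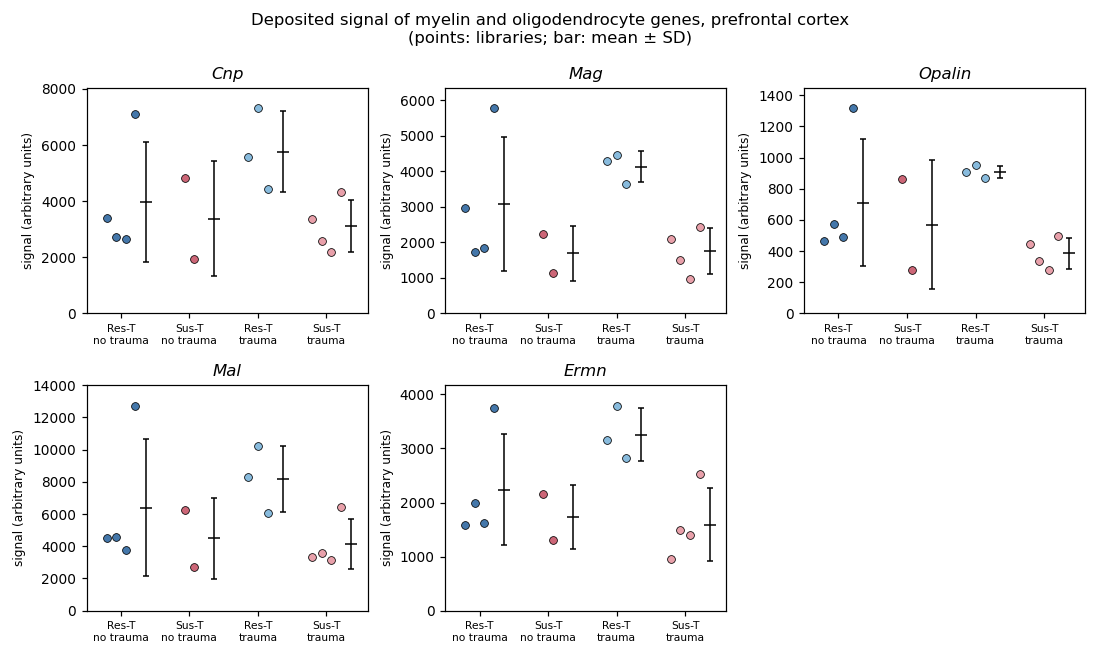
Signal of the 5 genes in the 13 prefrontal libraries, in arbitrary units from 0, with 1 point per library and a bar for the mean ± SD of each group. Library 4 of Res-T without trauma stands above the other 3 of its group in every panel, and the Res-T libraries with trauma lie above those of Sus-T with trauma, save 1 Sus-T library for Mal.

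Without trauma the prefrontal groups overlapped widely. Library 4 of Res-T without trauma stood apart from the others of its group in all 5 genes. It measured 7121 for Cnp against 3387, 2726 and 2653, and 12733 for Mal against 4534, 4590 and 3739. The same library measured 5779 for Mag (2973, 1717 and 1850 in the others), 1316 for Opalin (462, 575 and 488) and 3750 for Ermn (1585, 1998 and 1629). In Sus-T without trauma, library 1 was above library 3 in each gene: 4818 and 1942 for Cnp, 2233 and 1150 for Mag, 861 and 276 for Opalin, 6249 and 2722 for Mal, and 2153 and 1313 for Ermn. limma called none of the 5 genes and 0 of all 6080 genes, or 0%, between Sus-T and Res-T without trauma, and 0 of the 5 and 630 of all (10.4%) at an unadjusted p under 0.05. The log2 differences ran from −0.76 ± 0.42 for Mag to −0.25 ± 0.40 for Cnp.

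For trauma within either prefrontal group, and for the difference between these effects, none of the 5 genes and 0% of all genes were called (limma; 0 of the 5 at an unadjusted p under 0.05, and 899, 91 and 371 of all genes, or 14.8%, 1.5% and 6.1%). In Res-T the log2 differences were 0.50 ± 0.37 for Opalin to 0.64 ± 0.35 for Cnp. Without library 4 of Res-T without trauma they were larger, from 0.84 for Opalin to 0.96 for Mag (adjusted p from 0.0539 to 0.107), and 588 genes were called in all. In Sus-T they were between −0.37 ± 0.42 for Opalin and 0.04 ± 0.42 for Mag. The differences between the trauma effects were −0.87 ± 0.56 for Opalin to −0.56 ± 0.57 for Mag.

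By group mean, Res-T without trauma was highest and Sus-T without trauma lowest for all 9 genes in the amygdala, with the groups with trauma in between and overlapping each other. In the prefrontal cortex Res-T with trauma was highest for all 5, and Sus-T with trauma was lowest for all but Mag, whose lowest mean was in Sus-T without trauma. The regions may have been normalized apart, and the difference between them was not tested. Prefrontal ratios between the 5 genes moved as little as those of the amygdala. In the 10 pairs the SD within groups had a median of 0.31 on the log2 scale, and of the 20 ratios to Cnp limma called none (0 at an unadjusted p under 0.05). The share of all genes called relative to Cnp was 0.0329% for trauma in Res-T and 0% in 3 other comparisons. With trauma 27% of all prefrontal genes were called relative to Cnp in Sus-T minus Res-T, in either direction. The 4 members ran from −0.42 ± 0.41 for Mag to −0.12 ± 0.39 for Mal.

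Other genes of myelin and oligodendrocytes moved in the same comparisons. They came from a list of 59 that was chosen with earlier results of these data known. In the amygdala without trauma, 47 of 53 measured genes fell in Sus-T and none rose, with a median log2 difference of −1.80, against 15% of all genes called lower and a median of −0.03. The 2 with the smallest p were Plekhh1 (−2.26 ± 0.23, 4190 to 890 by group mean, adjusted p = 1.5e-05) and Tmem88b (−2.05 ± 0.22, adjusted p = 1.5e-05). With trauma, 0 of the 53 passed, as did 0% of all genes. For trauma in Res-T 13 of 53 fell, against 2.88% of all genes. They were led by Nfasc, the axon-glia adhesion molecule neurofascin, at −1.20 ± 0.22 (adjusted p = 0.00924), and Plekhh1 at −0.98 ± 0.19 (adjusted p = 0.0106). For trauma in Sus-T none of them was called, where 0.0304% of all genes were. The difference between the trauma effects was positive and called in 31, against 4.76% of all genes. It was led by Tmem88b at 1.99 ± 0.28 and Gjc3, a connexin of oligodendrocytes, at 1.98 ± 0.30 (adjusted p = 0.00221 and 0.00265).

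Among prefrontal libraries with trauma 27 of 43 measured genes of this list fell in Sus-T and none rose (median −1.13), against 8.93% of all genes called lower and 14% higher. They were led by Myrf, the transcription factor that works with SOX10 on myelin genes, at −1.70 ± 0.31 (adjusted p = 0.00256) and Tmem63a, an ion channel gene, at −1.57 ± 0.29 (adjusted p = 0.00274). No gene of the list was called in the other prefrontal comparisons, where 0% of all genes were. The genes that followed the mean of the 9 most closely over the 13 amygdala libraries were Kat2b (Pearson r = 0.978), Frmd5 (0.974), Slc44a1 (0.972), Tm7sf3 (0.972) and Afap1l1 (0.970). Over the 13 prefrontal libraries they were Trf (0.979), the gene of the iron carrier transferrin and a member of the list, Gab1 (0.966), Smco3 (0.965), Serinc5 (0.964) and Dip2a (0.963). These correlations describe libraries that share their group differences.

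Markers of other cell types moved in the same comparisons, and their part in the results was not tested. In the amygdala without trauma all 5 pyramidal markers rose in Sus-T, against 12.4% of all genes. Their summed signal was 0.0170% to 0.0239% of a library in Res-T and 0.132% to 0.167% in Sus-T without trauma, and 0.0395% to 0.0600% in Res-T and 0.0743% to 0.244% in Sus-T with trauma. The 9 myelin genes together took 1.44% to 1.86%, 0.585% to 0.768%, 1.16% to 1.64% and 1.11% to 1.40% in the same order. Astrocyte markers rose in 5 of 10 (0.303% to 0.472% in Res-T and 1.02% to 1.90% in Sus-T without trauma, 0.303% to 0.811% and 0.71% to 1.56% with trauma). Microglia markers rose in 3 of 3 (0.00597% to 0.00934%, 0.0221% to 0.0273%, 0.00890% to 0.0184% and 0.00692% to 0.0302%). By group mean, the order of the 4 groups in myelin signal was the reverse of their order in pyramidal and in astrocyte signal.

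Precursor markers in the amygdala without trauma rose in 2 of 5 (0.0779% to 0.0984%, 0.160% to 0.307%, 0.0669% to 0.170% and 0.152% to 0.184% of a library in the same order of groups). Markers of endothelial, mural and fibroblast cells rose in 2 of 7 and fell in 1, and those of interneurons fell in 1 of 2. The 1 Schwann cell marker, Pmp22, fell. Of all genes, 12.4% were called higher and 15% lower in this comparison. Between Sus-T and Res-T with trauma, none of these lists held a called amygdala gene. For trauma in amygdala Res-T 2 of 5 pyramidal and 1 of 10 astrocyte markers rose, against 3.3% of all genes, and for the difference between the trauma effects 1 of 5 pyramidal and 1 of 7 vascular markers were called lower, against 1.98% of all genes. Among prefrontal libraries with trauma, 3 of 4 precursor markers rose in Sus-T, against 14% of all genes (0.0623% to 0.229% in Res-T and 0.172% to 0.210% in Sus-T). Pmp22 fell, against 8.93% of all genes called lower. None of 7 astrocyte markers, 1 interneuron marker and 1 pyramidal marker was called. The microglial and vascular lists were not analysed here in that region. No marker with a row was at 0 in any library, but neither was any other gene. The lack of values at 0 therefore cannot show whether a cell type was present.

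**Figure D5:**
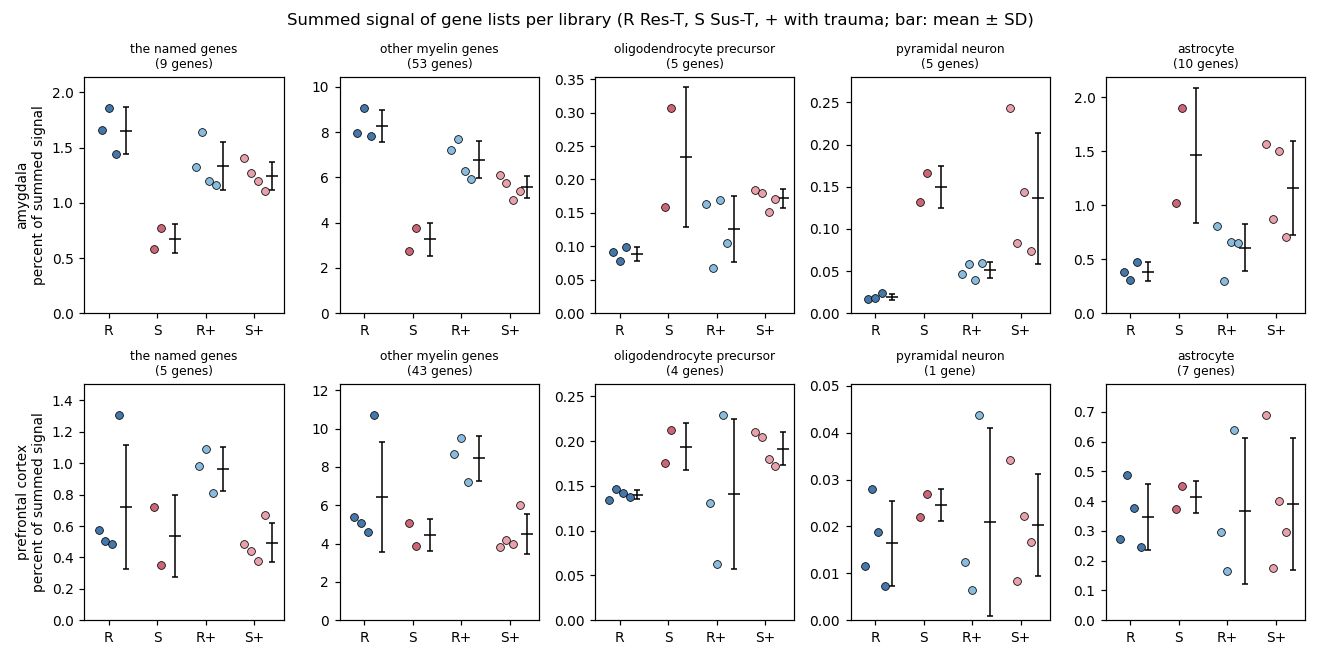
Summed signal of 5 gene lists as percent of each library, amygdala above and prefrontal cortex below, with 1 point per library and a bar for the mean ± SD; R is Res-T, S is Sus-T and + marks trauma. In the amygdala the panel of the 9 named genes is lowest in Sus-T without trauma at 0.585% to 0.768% and that of other myelin genes at 2.74% to 3.78%, while the pyramidal and astrocyte panels are lowest in Res-T without trauma.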

How the data were processed

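The deposited tables held a normalized signal for 26 libraries of 29 described samples, 13 in each region. The 3 samples that the labels mark as removed had no columns and were not used, and no column of per-sample values was left unused. The authors normalized this signal before they deposited it, by a method not given in the sources used here. The tools named in the submitters' processing notes are bcl2fastq 2.20 and Salmon 1.2, and the build is GRCm38.p6. Since the values were not counts, no count test was used.

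Symbols, coordinates and overlapping gene models came from GENCODE M21 (GRCm38.p6), matched by gene identifier, and promoters from RefSeq on GRCm38.p6. The analysis used log2(value + 1) for genes with a mean of at least 1, which removed none. limma 3.58.1 in R 4.3.3 (trend and robust moderation, 9 residual degrees of freedom) was fitted to the 4 groups of each region, with 5 contrasts, and p-values were adjusted by Benjamini and Hochberg over all genes, at a threshold of 0.05. Ratios were fitted after subtracting each library's log2 value of Cnp. Scripts were tested on simulated data. The members, the lists and the tests were chosen with earlier results of these data known.

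All 9 members are named throughout. From the list of other myelin genes the 2 called genes with the smallest p in each direction of each contrast are named, and, as the likest genes, the 5 per region with the highest Pearson correlation with the mean of the members' standardized log2 values. Mbp and Bcas1 were named after their values were seen. Lists of pyramidal neurons, interneurons, astrocytes, precursors, microglia, vascular cells and Schwann cells were counted the same way. Alternatives were other scalings, a pseudocount of 10, a minimum mean of 50, no filter, other moderation, a replicate block, fits of 2 groups only, and each library left out in turn.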

Additional observations from a re-analysis of the deposited data

Results flagged for a closer look

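Library 4 of prefrontal Res-T without trauma lay far above the other 3 libraries of its group for Cnp (7121), Opalin (1316) and Mal (12733), by the gap to its neighbour relative to the range of the group. Library 4 of Sus-T with trauma did so for Mal (6425). This was looked for in 28 groups of 4 libraries, on the signal itself and not on log2 values. A chance rate of about 1 in 20 assumes normally distributed values, and whether it holds for this signal was not tested. On log2 values, which the tests used, each of these gaps was smaller relative to the range of its group. Genes of 1 library are not independent, since they share its makeup.

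In the amygdala, the effect of trauma differed between Sus-T and Res-T by the direct test in 8 of the 9 genes. Of all genes, 6.74% were called, and 4.76% were called with a positive difference. The differences between the effects were 1.68 for Cnp, 1.79 for Mag, 1.50 for Cldn11, 1.99 for Opalin, 1.81 for Mal, 1.91 for Ermn, 1.69 for Apod and 1.73 for Sox10 on the log2 scale (limma, adjusted p from 0.00334 to 0.0462). The pair of Sus-T libraries without trauma enters all of them, and 1 of the 8, Mal, was called without its library 1.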

How the results depend on the processing

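Of the 1636 values of single genes and ratios under an alternative, 1504 kept their direction and side of the threshold, 57 lost a call, 41 gained one and 34 changed sign. None of the 34 was called in the reported fit or under the alternative. The count of called genes in the amygdala without trauma was 9 with only the 2 groups fitted, 8 under each other alternative that kept all libraries, and 8 to 9 with a library left out. That with trauma was 0 throughout. For trauma in Res-T the count, 0 as reported, was 1 after median centring, with a minimum mean of 50 and with only the 2 groups fitted, and 0 to 4 with a library left out. For trauma in Sus-T, 1 as reported, it was 3 after quantile normalization, 5 after median centring, 2 with a pseudocount of 10, 2 with a minimum mean of 50, and 0 without trend and robust options, with the replicate block and with only the 2 groups fitted. With a library left out it was 0 to 8. The count for the difference between the trauma effects, 8 as reported, was 6 after quantile normalization, which ended the calls of Mag (adjusted p = 0.0660) and Sox10 (adjusted p = 0.0953), 7 with the replicate block, 5 without trend and robust options and 1 to 8 with a library left out. The count of ratios to Cnp, 1 as reported, was 7 with Mobp as reference and 0 to 2 with a library left out. In the prefrontal cortex with trauma the count, 3 as reported, was 5 after median centring and with only the 2 groups fitted, 0 without trend and robust options, and 0 to 5 with a library left out. The other prefrontal counts stayed at 0. For alternatives other than a library left out, the number called among all genes is not given here. Whether a count that changed under them was particular to the named genes was therefore not tested.

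Values close to 0 changed sign. After quantile normalization Mobp in the amygdala with trauma was −0.0216 and Apod for trauma in Res-T 0.0099; after median centring Cnp for trauma in prefrontal Sus-T was 0.000704. With a library left out, the log2 differences in the amygdala with trauma ran from −0.25 to 0.12 for Cnp, −0.0535 to 0.36 for Mobp and −0.10 to 0.15 for Mal. Ratios to Cnp in the amygdala without trauma ran from −0.0559 to 0.17 for Cldn11 and −0.11 to 0.11 for Mal, and in the prefrontal cortex with trauma from −0.18 to 0.0124 for Mal and −0.33 to 0.067 for Ermn. Prefrontal values without trauma ran from −0.90 to 0.41 for Cnp, −1.22 to 0.42 for Opalin, −1.04 to 0.16 for Mal and −0.68 to 0.0381 for Ermn. For trauma in prefrontal Sus-T they ran from −0.67 to 0.64 for Cnp, −0.44 to 0.52 for Mag, −1.19 to 0.45 for Opalin, −0.67 to 0.53 for Mal and −0.52 to 0.19 for Ermn, and for the difference between the trauma effects from −1.18 to 0.0181 for Mal. The cause of these changes was not tested beyond the libraries left out.

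Same-numbered libraries share only a number: the correlations of their deviations from group means ran from −0.33 to 0.35, and no comparison of 3 or more pairs had all of them above 0.1. With the replicate block, Apod for trauma in Sus-T had an adjusted p of 0.0552, Sox10 for the difference between the effects 0.0521, and Mag for trauma in prefrontal Sus-T changed sign to −0.0252.

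Counts over all genes moved too. With a library left out they were 1565 to 3190 in the amygdala without trauma (2706 as reported), 101 to 724 for trauma in Res-T (610), 1 to 287 for trauma in Sus-T (3), 59 to 810 for the difference between the effects (665) and 0 to 12 with trauma (0). The prefrontal counts were 624 to 1658 with trauma (1397), 0 to 53 without trauma, 0 to 588 for trauma in Res-T, 0 to 3 for trauma in Sus-T and 0 to 12 for the difference between the effects (0 as reported in each). The fit with Mobp as reference was not run in the prefrontal cortex, and the difference between the trauma effects was not fitted with only 2 groups. Read depth is unknown, so no limit from depth can be given.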

Other observations

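Mobp was the gene that moved least with the others in the amygdala. Its log2 values correlated with those of the other 8 genes with a median Pearson r of 0.395 over 13 libraries, against 0.80 to 0.95 for each of the other 8. Among 61 myelin and oligodendrocyte genes, 8 of the members and 53 of the list, the one closest to Mobp was Mbp, the gene of myelin basic protein (r = 0.929), followed by Bcas1 (r = 0.884). No other of the amygdala's genes had a higher r with Mobp than Mbp. These genes were singled out after their values were seen.

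Mbp measured 30055, 36590 and 23944 in Res-T and 17761 and 21497 in Sus-T without trauma. With trauma it measured 26607, 22371, 30477 and 32181 in Res-T and 47376, 25609, 21204 and 25988 in Sus-T. Library 1 of Sus-T with trauma was thus the highest for Mbp, as it was for Mobp. The Mbp difference between Sus-T and Res-T without trauma was −0.61 ± 0.28 on the log2 scale (limma adjusted p = 0.121), near that of Mobp and short of the threshold, as was that of Bcas1 at −0.37 ± 0.41 (adjusted p = 0.545).

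The log2 ratio of Mbp to Mobp was 1.06 ± 0.12 (SD, n = 3), 1.11 ± 0.19 (n = 2), 1.25 ± 0.08 (n = 4) and 1.08 ± 0.19 (n = 4) in Res-T and Sus-T without trauma and Res-T and Sus-T with trauma. That of Mbp to Cnp was 1.69 ± 0.06, 2.85 ± 0.38, 2.14 ± 0.69 and 2.28 ± 0.61 in the same groups. The RNAs of Mbp and Mobp are both known to be carried out of the cell body into oligodendrocyte processes. Whether the place of a transcript in the cell bears on these values was not tested.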
